A study of Mus musculus with 12 samples.

Results

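The Ugt, Gst and Sult genes encode the enzymes that attach glucuronic acid, glutathione or sulfate to drugs, food chemicals, hormones and breakdown products. They were taken as all gene entries whose symbols begin with Ugt1 to Ugt3, with Gst of the alpha, kappa, mu, omega, pi, sigma, theta and zeta classes, with Mgst or with Sult. This gave 62 of the 23366 genes counted: 20 Ugt, 21 Gst, 3 Mgst and 18 Sult genes. Membership went by symbol alone.

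RNA-seq gene counts were compared in epithelium of the mouse small intestine from 4 groups of 3 libraries each, all of a mixed C57BL/6 CD1 strain. E12.5 and E14.5 are embryonic epithelial cells, sorted as positive for EpCAM, an epithelial surface protein, and negative for CD31 and CD45, which mark endothelium and blood cells. Each E12.5 library came from a pool of 20 embryos, and the number of embryos behind an E14.5 library is not given in the sources used here. ISC are adult intestinal stem cells, sorted by high EGFP from crypts of 60-day-old males that carry the Lgr5EGFP-Cre-ERT allele, in which EGFP reports the stem cell gene Lgr5. AE are the adult cells that the labels call enterocytes, sorted by the embryonic surface markers from mice of the same allele and age, with 1 gut per library for both adult groups. In all 6 embryonic libraries the age label names the other embryonic stage than the title does, and the titles were followed. The groups were not set apart by design through a targeted gene, and the reporter allele is shared by both adult groups. It is described here for the adults alone, so embryo and adult may differ in this allele as well as in age.

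Glucuronosyltransferases (Ugt) use UDP-glucuronic acid and sit in the endoplasmic reticulum, most sulfotransferases (Sult) described here use the sulfate donor PAPS in the cytosol, and glutathione transferases (Gst, with the membrane-bound Mgst) use glutathione. The products are more soluble in water and are carried out of the cell by export pumps. In the small intestine these enzymes meet food chemicals and oral drugs before the blood does, and villus enterocytes are known for high levels of several of them. The Ugt1a genes are a special case, since they share their last exons and differ in a first exon of their own, each with its own promoter.

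The libraries held 12587626 to 45190749 gene counts. Levels are given as CPM, that is counts divided by the TMM-scaled library size in the usual unit, and changes as log2 fold changes with their standard error (SE). A gene was called higher or lower at a Benjamini-Hochberg adjusted p under 0.05 over all 15342 genes tested, with edgeR's quasi-likelihood test on all 12 libraries. Markers of enterocytes summed to 191, 174 and 179 CPM at E12.5, 419, 438 and 428 at E14.5, 1407, 2076 and 1324 in ISC and 23435, 50063 and 52992 in AE. All 8 of them were higher in AE than in ISC (32.6% of all genes), none was at 0 in AE, and AE replicate 1 held the lowest sum of its group. AE also held markers of goblet, Paneth, enteroendocrine and tuft cells. They summed to 17152, 17573 and 13133 CPM in AE and 3720.2, 4610.0 and 2888 CPM in ISC. Of 9 tested, 6 were higher and 1 lower in AE than in ISC, beside 32.6% and 35.2% of all genes. The Paneth gene Defa24 was at or under a mean of 0.179 CPM in each group. AE were therefore described by their label and not as enterocytes alone. Mesenchyme markers summed to 172 to 213 CPM at E12.5, 329 to 406 at E14.5, 9.95 to 11.8 in ISC and 16.9 to 18.6 in AE. Of 10 genes best known from liver, 4 of 7 tested were higher and 1 lower in AE than in ISC (32.6% and 35.2% of all genes). They summed to 423 ± 73.2 CPM at E12.5, 3261 ± 99.6 at E14.5, 6163 ± 561 in ISC and 3197 ± 621 in AE, most of it in each group from Cps1, a urea cycle gene that the intestine also uses. The liver-defining Alb averaged at most 2.05 CPM in any group. Reads with several alignments were listed at 3.06% to 5.96% in the E12.5 and ISC libraries and at 0 in the E14.5 and AE libraries. ISC over E12.5 and AE over E14.5 stay within one kind of listing, and the other 3 comparisons cross it.

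Summed over the 62 genes, the enzymes stood at 929, 829 and 808 CPM at E12.5, 1172, 1196 and 1135 CPM at E14.5, 1205, 1226 and 1108 CPM in ISC and 5412, 8372 and 9918 CPM in AE. The AE libraries thus held several times the sum of any other library, and E14.5 and ISC overlapped. In these sorted bulk samples, fewer cells of a type and less RNA per cell cannot be told apart. AE replicate 1 was the lowest of its group for the sum, as it was for the enterocyte markers, and the part of cell composition in the difference was not tested. Within AE it was lowest for 35 of the 44 genes tested, and AE replicate 3 was highest for 25. Likewise ISC replicate 3 was lowest of its group for 30, and E12.5 replicate 1 highest of its group for 30.

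By superfamily, the Gst genes summed to 426 ± 33.3 CPM at E12.5, 520.2 ± 7.81 at E14.5, 550.0 ± 18.8 in ISC and 3882 ± 1431 in AE (mean ± SD, n = 3 libraries, as for every mean below). The Ugt genes summed to 373 ± 26.8, 507 ± 21.2, 385 ± 21.8 and 2215 ± 524 CPM in the same order of groups. The Sult genes were low in the embryo and summed to 34.2 ± 2.9, 57.6 ± 4.8, 98.3 ± 13.1 and 1269 ± 361 CPM. The 3 Mgst genes summed to 23.1 ± 3.07, 83.1 ± 4.34, 146 ± 36.3 and 535 ± 79.6 CPM.

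**Figure D1:**
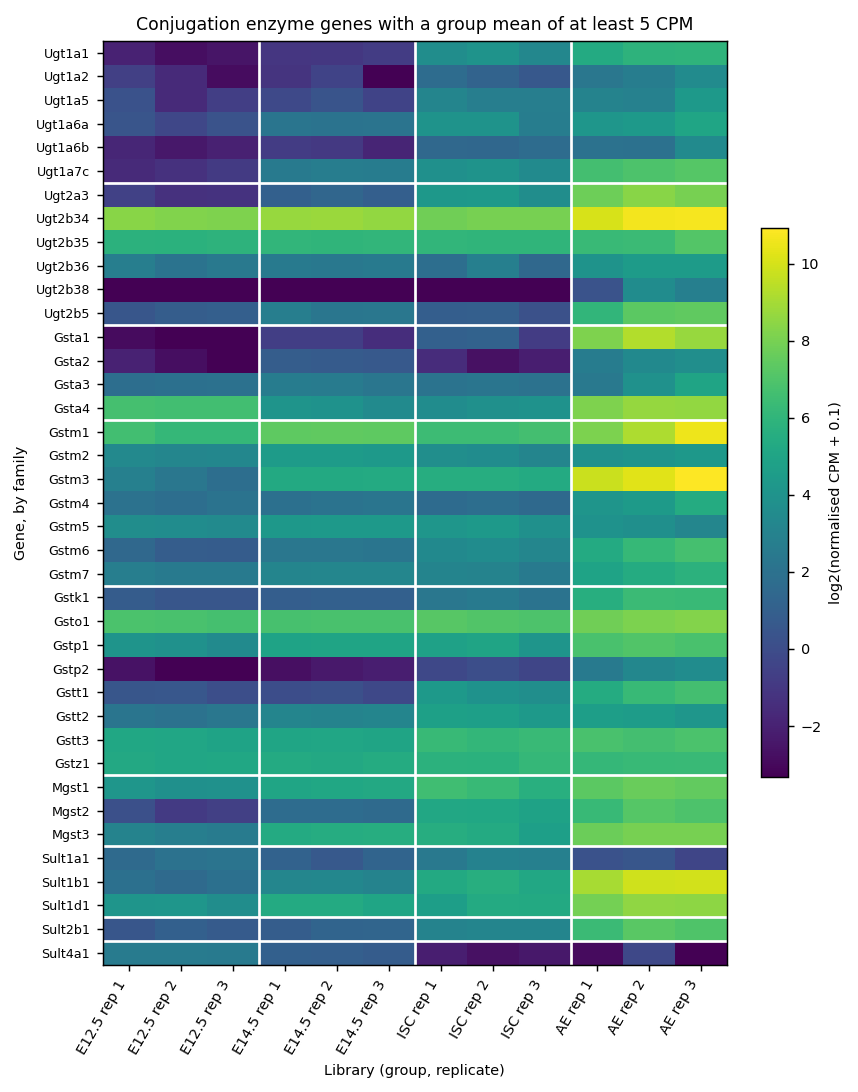
Levels of the 39 genes with a group mean of at least 5 CPM (rows, by family) in the 12 libraries (columns), coloured by log2(normalised CPM + 0.1). The AE columns are the brightest for most rows, Sult1a1 is dimmest there, and Gsta4 is bright at E12.5 and in AE with dim E14.5 and ISC columns between.

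Of the 62 genes, 44 had enough counts to be tested. Of the other 18, 12 had 0 counts in every library and 6 had some, with at most 46 counts in all. At E14.5, 21 of the 44 were higher and 3 were lower than at E12.5, where 23.6% of all genes tested were higher and 25.6% lower. In ISC, 21 were higher and 6 lower than at E14.5, beside 30.2% and 30.6% of all genes. In AE, 36 were higher and 2 lower than in ISC, beside 32.6% and 35.2% of all genes. The median log2 change over the tested enzymes was 0.69 for E14.5 over E12.5, 0.74 for ISC over E14.5 and 2.22 for AE over ISC, against -0.015, -0.0048 and -0.053 over all genes. In all 3 comparisons the share of enzymes called higher was thus above that of all genes, and the share called lower below it, with the widest gap in AE over ISC. Without AE replicate 1 the AE over ISC counts were 37 higher and 2 lower. The lower count was 1, that of Sult1a1, without ISC replicate 1, ISC replicate 2, AE replicate 2 or AE replicate 3.

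In the pairs that do not cross the listing of reads with several alignments, 27 enzymes were higher and 4 lower in ISC than at E12.5, beside 33.9% and 34.6% of all genes. In AE, 39 were higher and 5 lower than at E14.5, so that all 44 were called, beside 36.7% and 41.5% of all genes. The lower count in AE over E14.5 was 3 without E14.5 replicate 1 and without AE replicate 1. The median log2 change was 1.28 for ISC over E12.5 and 2.66 for AE over E14.5, against -0.01 and -0.12 over all genes. When a log2 change of at least 1 was also asked, 17 enzymes were higher and 2 lower at E14.5 than at E12.5 (9.58% and 13.0% of all genes), 20 and 3 in ISC over E14.5 (15.8% and 17.4%), 31 and 1 in AE over ISC (19.9% and 20.9%), 23 and 3 in ISC over E12.5 (19.3% and 21.8%), and 37 and 2 in AE over E14.5 (24.4% and 28.8%).

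All 3 AE libraries lay above the other 9 for 33 of the 44 enzymes, where 24.3% of all genes did so. Among the 33, Ugt2b38 had 0 counts in the other 9 libraries and was tested only through its AE counts. Its place here was thus fixed by the filter, and it is also among the enzymes called higher in AE. Ugt1a9, with 6 counts at E12.5, 8 at E14.5 and 15 in ISC, also had few counts outside AE. All 3 E12.5 libraries lay below the other 9 for 18, where 16.9% of all genes did. Each other pattern of this kind was held by a single gene. Sult4a1 alone was highest in the E12.5 libraries (21.5% of all genes), Gstm2 alone in the E14.5 libraries (7.32%) and Sult1a1 alone in the ISC libraries (9.30%). Sult1a1 was also the only enzyme with all AE libraries lowest (24.0% of all genes), and Ugt2b34 the only one with all ISC libraries lowest (7.22%). No enzyme had all E14.5 libraries lowest (5.36%). These counts describe non-overlap and carry no test.

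**Figure D2:**
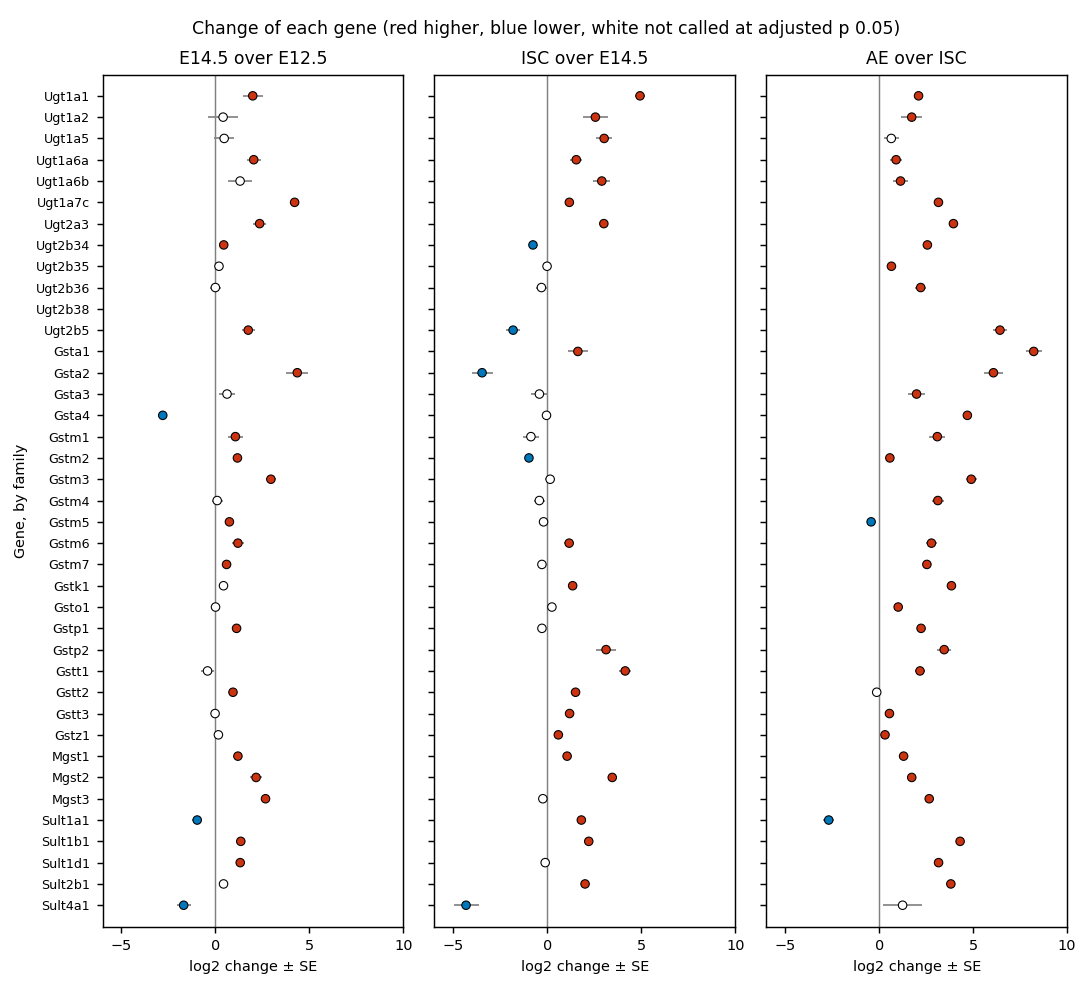
Log2 change of each enzyme gene with a group mean of at least 5 CPM in 3 comparisons (panels; x axis, log2 change with its SE as a bar; rows, genes by family), with red for higher, blue for lower and white for not called. A gene has a point only where both groups hold more than 3 counts. Most points of the AE over ISC panel lie to the right of 0, while the other panels have more white points.

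The Ugt1a genes came first in the glucuronidation branch, because reads of one locus are split over 8 symbols. In the GENCODE annotation of GRCm38, 52.1% to 80.2% of the 50-base stretches in the exons of each tested gene also occur in another gene. How reads in the shared exons were assigned is not given in the sources used here. Ugt1a1, Ugt1a6a and Ugt1a7c carried most of the counts. Each was called higher at every step with all 12 libraries, by folds that differed between the genes. Their promoters are shown because each gene has its own start, as the 250 bases before the annotated start (RefSeq, GRCm38.p6), at chr1:88211709-88211958, plus strand for Ugt1a1, chr1:88134559-88134808, plus strand for Ugt1a6a and chr1:88094751-88095000, plus strand for Ugt1a7c. Capitals mark the letters of a match to GTTAATNAT, a written form of the site of HNF1, read on either strand.
Ugt1a1: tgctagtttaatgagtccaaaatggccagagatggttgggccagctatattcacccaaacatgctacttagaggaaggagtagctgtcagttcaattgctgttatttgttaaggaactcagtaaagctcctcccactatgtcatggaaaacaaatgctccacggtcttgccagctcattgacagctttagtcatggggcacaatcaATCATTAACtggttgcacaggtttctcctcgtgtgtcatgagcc
Ugt1a6a: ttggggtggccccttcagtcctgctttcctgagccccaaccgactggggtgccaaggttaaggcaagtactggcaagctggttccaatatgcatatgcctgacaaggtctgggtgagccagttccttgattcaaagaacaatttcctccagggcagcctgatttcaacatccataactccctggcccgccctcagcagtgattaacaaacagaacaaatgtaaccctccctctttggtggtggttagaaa
Ugt1a7c: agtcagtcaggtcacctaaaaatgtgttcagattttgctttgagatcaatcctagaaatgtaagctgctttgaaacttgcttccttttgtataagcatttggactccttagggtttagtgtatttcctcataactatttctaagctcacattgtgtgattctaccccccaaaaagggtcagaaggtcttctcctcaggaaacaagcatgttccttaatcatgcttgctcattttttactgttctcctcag
Aligned over their length, the windows of Ugt1a1 and Ugt1a7c were 52.3% identical, those of Ugt1a1 and Ugt1a6a 51.5% and those of Ugt1a6a and Ugt1a7c 49.5%, against a median of 48.6% over all 1431 pairs of enzyme promoters. The HNF1 form was found at position -44 of Ugt1a1, counted back from the start to the first base of the match, and not in the other 2 windows.

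Ugt1a1, the enzyme that conjugates bilirubin, was near absent in the embryo. It had 0.16, 0.0444 and 0.0734 CPM at E12.5, 0.374, 0.39 and 0.483 at E14.5, 12.4, 15.8 and 9.52 in ISC and 41.1, 59.1 and 61.3 in AE. The groups did not overlap. The level at E14.5 was 3.97-fold that at E12.5 (log2 change 1.99 ± 0.52 SE, edgeR adjusted p = 0.00613). The level in ISC was 30.6-fold that at E14.5 (log2 change 4.93 ± 0.27 SE, edgeR adjusted p = 2.17e-09), and that in AE 4.27-fold that in ISC (log2 change 2.095 ± 0.21 SE, edgeR adjusted p = 6.6e-07). ISC over E12.5, within one listing of reads, was 121-fold (adjusted p = 4.79e-10). The E12.5 mean rests on few counts, and without E12.5 replicate 1 that log2 change was 7.59, against 6.92 with all libraries.

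Ugt1a7c, another first-exon gene of the locus, appeared earlier, with 0.225, 0.311 and 0.44 CPM at E12.5, 5.51, 6.48 and 6.24 at E14.5, 14.3, 15.7 and 11.3 in ISC and 101, 122 and 144.7 in AE. It was 18.6-fold higher at E14.5 than at E12.5 (log2 change 4.22 ± 0.25 SE, edgeR adjusted p = 3.18e-08), 2.26-fold higher in ISC than at E14.5 (adjusted p = 3.71e-05) and 8.9-fold higher in AE than in ISC (log2 change 3.15 ± 0.17 SE, edgeR adjusted p = 3.11e-09). Ugt1a6a, a phenol-conjugating enzyme, had 1.25, 0.711 and 1.14 CPM at E12.5, 4.51, 4.16 and 4.35 at E14.5, 16, 15.6 and 6.57 in ISC and 18, 20.4 and 33.1 in AE. Its ISC and AE ranges came close, ISC replicate 3 stood apart at the low end, and the AE over ISC change of 0.90 (adjusted p = 0.0162) lost its call without AE replicate 3, at 0.65 (adjusted p = 0.0764). Its rises at the earlier steps were 4.12-fold for E14.5 over E12.5 and 2.91-fold for ISC over E14.5, both called.

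The lower Ugt1a genes were most abundant in AE as well. Ugt1a5 averaged 0.62 ± 0.46 CPM at E12.5, 0.866 ± 0.308 at E14.5, 7.4 ± 1.33 in ISC and 11.8 ± 6.8 in AE, higher in ISC than at E14.5 (adjusted p = 4.27e-05) and not called in AE over ISC (adjusted p = 0.162). Ugt1a2 reached 7.58 ± 3.42 CPM in AE, against 2.26 ± 0.87 CPM in ISC, and Ugt1a6b reached 6.43 ± 4.22 CPM in AE, against 2.82 ± 0.311 CPM in ISC. Both were called higher (adjusted p = 0.0143 for Ugt1a2 and 0.0179 for Ugt1a6b), and both calls were lost without AE replicate 3, at log2 changes of 1.38 for Ugt1a2 and 0.55 for Ugt1a6b. That of Ugt1a2 was also lost without ISC replicate 3, at 1.504, and that of Ugt1a6b without ISC replicate 2, at 1.08. Ugt1a9 stayed under 5 CPM in each group, and Ugt1a10 had 1 count in all.

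As shares of the summed Ugt1a level, Ugt1a6a held the largest mean share at E12.5, Ugt1a7c at E14.5 and again in AE, with 3 genes near each other in ISC. Ugt1a7c made up 14.46% ± 7.16 at E12.5, 48.9% ± 3.53 at E14.5, 26.8% ± 2.25 in ISC and 54% ± 2.71 in AE. Ugt1a6a made up 41.7% ± 6.97, 35% ± 3.4, 23.7% ± 5.86 and 10.3% ± 1.28 in the same order, and Ugt1a1 3.39% ± 0.926, 3.36% ± 0.621, 24.3% ± 2.68 and 23.7% ± 2.52. The share of Ugt1a1 thus differed between embryo and adult by far more than its spread between libraries, and hardly between ISC and AE. E12.5 shares rest on a summed level of 2.55 ± 0.985 CPM, so that they are less precise than the others. The shares take no account of the exon bases that are a gene's own, 385 for Ugt1a1, 1915 for Ugt1a7c and 2142 for Ugt1a6a. Per kilobase of these, Ugt1a1 stood highest of the locus in ISC (32.7 ± 8.16 CPM) and in AE (140 ± 28.9). Ugt1a7c had 7.18 ± 1.19 and 63.9 ± 11.5, and Ugt1a6a 5.94 ± 2.49 and 11.1 ± 3.78. Of the Ugt1a1 exon stretches, 80.23% also occur in another gene, but 58.16% in another of the enzyme genes. For Ugt1a7c these were 53.65% and 53.37%. The 385 bases of Ugt1a1 thus also leave out sequence shared only with genes outside the enzymes. Whether reads there were counted for Ugt1a1 is not known, since the annotation used for counting is not given. The lead of Ugt1a1 per kilobase is therefore uncertain. Which gene leads thus depends on the measure, and how shared exons were counted is not given.

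**Figure D3:**
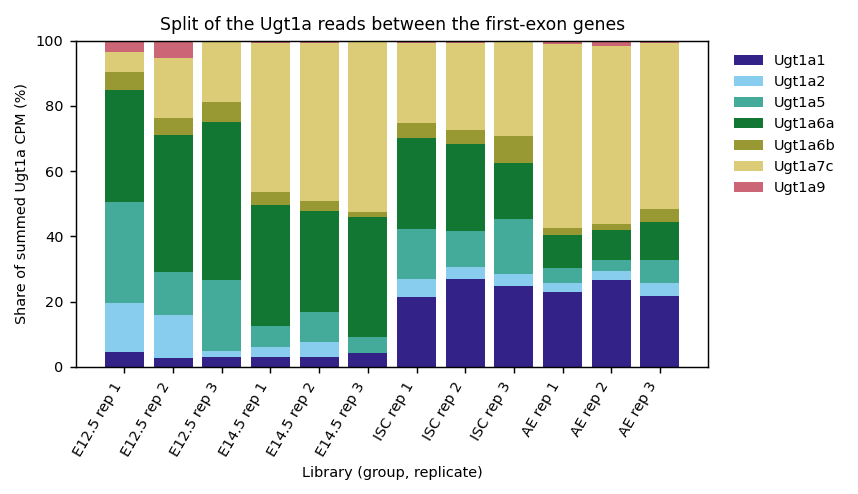
Share of the summed Ugt1a level (y axis, percent) held by each Ugt1a gene, 1 bar per library. Ugt1a7c is the broadest band at E14.5 and in AE, Ugt1a1 is a thin band in the embryonic bars and a broad one in the adult bars, and Ugt1a6a narrows towards AE.

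Among the Ugt2 genes, Ugt2b34 was the most abundant in every group, with 334, 298 and 285 CPM at E12.5, 423, 433 and 393 at E14.5, 225, 258 and 255 in ISC and 1051, 1652 and 1659 in AE. The ISC libraries were lowest and the AE libraries highest, with no overlap between the groups. Within one listing of reads, ISC over E12.5 (log2 change -0.31) was not called with edgeR on all 12 libraries and TMM scaling. It was called in 4 of 13 alternative runs. In ISC the level was 1.69-fold lower than at E14.5 (log2 change -0.76 ± 0.16 SE, edgeR adjusted p = 0.000735), and in AE 5.92-fold higher than in ISC (log2 change 2.56 ± 0.16 SE, edgeR adjusted p = 1.18e-08). The E14.5 over E12.5 change of 0.45 (adjusted p = 0.0278) lost its call in 4 of the 6 fits that leave out 1 of these libraries. It kept the call with the 6 libraries of the comparison alone. Ugt2b34 held 82.5% ± 1.49 of the summed Ugt2 level at E12.5, 84.2% ± 0.711 at E14.5, 73.6% ± 2.6 in ISC and 73.2% ± 0.314 in AE.

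Ugt2a3, whose human counterpart conjugates bile acids, climbed at each step, with 0.578, 0.311 and 0.33 CPM at E12.5, 1.99, 2.5 and 1.89 at E14.5, 18.9, 21 and 12.52 in ISC and 216, 335 and 258 in AE. No groups overlapped. It was 5.12-fold higher at E14.5 than at E12.5 (adjusted p = 5.84e-05), 8.06-fold higher in ISC than at E14.5 (adjusted p = 5.89e-08) and 15.5-fold higher in AE than in ISC (log2 change 3.95 ± 0.22 SE, edgeR adjusted p = 3.47e-09). Ugt2b5 followed another course, with 1.28, 1.73 and 1.87 CPM at E12.5, 6.65, 4.78 and 4.88 at E14.5, 1.77, 1.91 and 1.04 in ISC and 66.1, 161 and 173 in AE. E14.5 lay above both E12.5 and ISC, and AE replicate 1 was the low library of AE. The level in AE was 86-fold that in ISC (log2 change 6.43 ± 0.38 SE, edgeR adjusted p = 6.75e-09), and that in ISC 3.53-fold lower than at E14.5 (adjusted p = 0.000822). Of its exon sequence, 41.7% also occurs in other genes, most of it in Ugt2b38, so counts of these copies are uncertain.

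Ugt2b38 had 0 counts in all E12.5, E14.5 and ISC libraries, and 1.16, 11.8 and 6.85 CPM in AE. Against a floor of 3 counts over the 3 libraries of a group, the mean AE level was at least 126-fold higher than in ISC and at least 252-fold higher than at E14.5. Without AE replicate 2 these bounds were 76.3-fold and 152.3-fold. Ugt2b35 varied little, with 57, 53.6 and 59.5 CPM at E12.5, 65.4, 64 and 65 at E14.5, 66.5, 64.1 and 62.4 in ISC and 81.4, 83.9 and 139 in AE. AE were 1.57-fold higher than ISC (log2 change 0.65 ± 0.16 SE, edgeR adjusted p = 0.00271), with AE replicate 3 well above the other 2, and no earlier step was called. Ugt2b36 had 6.58, 4.22 and 5.28 CPM at E12.5, 5.43, 5.05 and 5.71 at E14.5, 3.49, 6.86 and 2.74 in ISC and 16.1, 22.5 and 22.2 in AE, and was called higher in AE, at 4.62-fold over ISC (log2 change 2.21 ± 0.29 SE, edgeR adjusted p = 1.03e-05). No earlier step was called with all libraries, and without ISC replicate 2 it was lower in ISC than at E14.5 (log2 change -0.802, adjusted p = 0.0130). Ugt2b1 stayed under 5 CPM in each group, Ugt2a1 and Ugt2a2 had 1 and 3 counts in all, Ugt2b37 had none, and of the Ugt3 genes Ugt3a2 had 1 count and Ugt3a1 none.

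In the alpha class of Gst genes, Gsta4, which conjugates the lipid peroxidation product 4-hydroxynonenal, was high at both ends of the series and low between them, with 104, 95.6 and 98.8 CPM at E12.5, 16.2, 15.4 and 11 at E14.5, 12.2, 14.3 and 15 in ISC and 283, 406 and 389.6 in AE. The E12.5 libraries lay above all E14.5 and ISC libraries and below all AE libraries, and E14.5 and ISC overlapped. At E14.5 the level was 6.95-fold lower than at E12.5 (log2 change -2.798 ± 0.17 SE, edgeR adjusted p = 2.8e-08), and ISC did not differ detectably from E14.5 (log2 change -0.04, adjusted p = 0.843). AE were 25.8-fold higher than ISC (log2 change 4.69 ± 0.18 SE, edgeR adjusted p = 3.24e-10). Within one listing of reads, ISC were 7.15-fold lower than E12.5 and AE 25.1-fold higher than E14.5, both called. None of its exon sequence in 50-base stretches occurs in another gene.

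Gsta1, an enzyme of the same class, had 1 count in all E12.5 libraries, and 0.523, 0.527 and 0.264 CPM at E14.5, 1.96, 2.12 and 0.478 in ISC and 282, 611 and 413 in AE. It was 298-fold higher in AE than in ISC (log2 change 8.22 ± 0.42 SE, edgeR adjusted p = 1.85e-09). The ISC over E14.5 change (1.63, adjusted p = 0.0156) lost its call without ISC replicate 1, at 1.40 (adjusted p = 0.0647), and without ISC replicate 2, at 1.26 (adjusted p = 0.0950). Of its exon sequence, 90.5% also occurs in other genes and 75.7% in Gm3776, which itself averaged 95 ± 23.5 CPM in AE and 0.439 ± 0.299 CPM in ISC, so the split between these copies is uncertain.

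Gsta2 averaged 0.0683 ± 0.0828 CPM at E12.5, 1.6 ± 0.147 at E14.5, 0.146 ± 0.10 in ISC and 10 ± 3.56 in AE. It was 11.1-fold lower in ISC than at E14.5 (log2 change -3.47 ± 0.56 SE, edgeR adjusted p = 0.000104), a step at which Gsta1 was not lower, and 67.6-fold higher in AE than in ISC (adjusted p = 1.64e-07). Of the Gsta2 exon sequence, 49.8% also occurs in other genes and 36.04% in Gsta1, and ISC over E14.5 crosses the listing of reads with several alignments, so the different courses of the pair are uncertain. The 250 bases before the starts of both genes are shown because they are near copies (RefSeq, GRCm38.p6), at chr9:78230419-78230668, plus strand for Gsta1 and chr9:78347146-78347395, minus strand for Gsta2. Capitals mark a match to TNGCGTG, a written form of the xenobiotic response element, read on either strand.
Gsta1: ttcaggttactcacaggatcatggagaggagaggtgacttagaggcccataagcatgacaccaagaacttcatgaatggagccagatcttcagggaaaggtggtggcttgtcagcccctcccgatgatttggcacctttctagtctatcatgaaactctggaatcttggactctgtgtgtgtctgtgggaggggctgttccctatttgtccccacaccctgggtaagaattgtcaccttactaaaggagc
Gsta2: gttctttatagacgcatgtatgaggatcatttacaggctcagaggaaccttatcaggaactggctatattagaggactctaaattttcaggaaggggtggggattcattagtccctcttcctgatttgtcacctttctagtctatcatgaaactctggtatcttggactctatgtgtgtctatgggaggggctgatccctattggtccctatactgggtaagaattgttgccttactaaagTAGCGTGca
These windows were 71.4% identical, rank 6 of 1431 pairs. The match lies at position -9 of Gsta2. Gsta3 averaged 3.67 ± 0.26 CPM at E12.5, 5.6 ± 0.753 at E14.5, 4.22 ± 0.235 in ISC and 17.3 ± 13.8 in AE. Its AE libraries spread 6.19-fold from lowest to highest and reached down into the range of the other groups, and it was called with all 12 libraries only where AE were compared, higher in AE, at 3.97-fold over ISC (log2 change 1.99 ± 0.45 SE, edgeR adjusted p = 0.00137). Without AE replicate 3 that log2 change was 1.23, and the change over E14.5 was 0.77, against 1.57 with all libraries. The AE over E14.5 call was lost with limma-voom (adjusted p = 0.0735).

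In the mu class, a row of neighbouring genes with broad activity towards epoxides and other electrophiles, 6 of the 7 genes were higher at E14.5 than at E12.5 (23.6% of all genes) and 6 were higher in AE than in ISC (32.6%). The E14.5 calls of Gstm1 and Gstm7 were lost in most fits that left out 1 library. Gstm1 had 98.5, 71.7 and 71.4 CPM at E12.5, 168, 175 and 164 at E14.5, 87.3, 88.1 and 102 in ISC and 276, 572 and 1520.0 in AE. The AE libraries spread 5.51-fold from lowest to highest, yet all lay above the other 9. AE were 8.53-fold higher than ISC (log2 change 3.09 ± 0.44 SE, edgeR adjusted p = 2.17e-05), and the mean stood at 4.67-fold over E14.5 (adjusted p = 0.000229). Without AE replicate 3 these log2 changes were 2.25 over ISC and 1.34 over E14.5, both still called. The E14.5 over E12.5 change (1.07, adjusted p = 0.0426) lost its call when any 1 of the 6 libraries was left out. Adjusted p was then 0.0544 to 0.119, although the groups did not overlap. Those fits estimate the spread of a gene over all groups, AE included. The call was kept with the 6 libraries of the comparison alone, and lost with DESeq2 (adjusted p = 0.0755) and relative log expression scaling (adjusted p = 0.05215). Gstm1 was called lower in ISC than at E14.5 only with the libraries of that comparison alone (log2 change -0.91, edgeR adjusted p = 9.64e-06).

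Gstm3 had 7.22, 4.89 and 3.49 CPM at E12.5, 39.5, 40.6 and 41.6 at E14.5, 46.7, 47 and 41.7 in ISC and 878, 1229.9 and 1929 in AE. E12.5 was lowest, E14.5 and ISC nearly met, and the 3 AE libraries stood far above. The level was 7.75-fold higher at E14.5 than at E12.5 (log2 change 2.95 ± 0.28 SE, edgeR adjusted p = 1.5e-06), not called for ISC over E14.5 (log2 change 0.15, adjusted p = 0.612) and 29.8-fold higher in AE than in ISC (log2 change 4.898 ± 0.29 SE, edgeR adjusted p = 5.92e-09). Of its exon sequence, 28.8% also occurs in other genes, pseudogenes included. Within the summed mu-class level, Gstm1 held 67.4% ± 1.66 at E12.5, 62.7% ± 0.642 at E14.5, 49.4% ± 5.12 in ISC and 30.7% ± 9.9 in AE, and Gstm3 held 4.28% ± 0.925, 15.1% ± 0.578, 24.1% ± 1.22 and 61.2% ± 8.35. The leading gene of the class was therefore Gstm1 in the embryo and in ISC, and Gstm3 in each AE library.

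Gstm6 rose at each step, with 2.73, 1.73 and 1.65 CPM at E12.5, 4.88, 4.82 and 4.48 at E14.5, 10.7, 12.1 and 9.18 in ISC and 42.3, 73.7 and 105 in AE, and no groups overlapped. Its folds were 2.3 for E14.5 over E12.5, 2.24 for ISC over E14.5 and 6.87 for AE over ISC, all called. Gstm7 had 6.8, 5.55 and 5.54 CPM at E12.5, 8.77, 9.31 and 9.05 at E14.5, 8.55, 8.12 and 5.74 in ISC and 30.1, 43.6 and 56.8 in AE, and Gstm4 had 4.07, 3.42 and 4.11 CPM at E12.5, 3.79, 4.18 and 4.53 at E14.5, 3.04, 3.49 and 2.78 in ISC and 17, 21.3 and 43.9 in AE. For both, the AE libraries lay above the rest, at 5.81-fold over ISC for Gstm7 (log2 change 2.54 ± 0.22 SE, edgeR adjusted p = 2.06e-07) and 8.7-fold for Gstm4 (log2 change 3.12 ± 0.30 SE, edgeR adjusted p = 6.36e-07). The E14.5 over E12.5 call of Gstm7 (log2 change 0.60, adjusted p = 0.0324) was lost in 5 of the 6 fits without 1 of these libraries. It was also lost with limma-voom (adjusted p = 0.0583), and kept with the 6 libraries of the comparison alone.

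Gstm2 was the one enzyme with all E14.5 libraries above the rest, with 10.2, 9.19 and 9.61 CPM at E12.5, 22.8, 22.2 and 20.6 at E14.5, 13.1, 11.8 and 8.65 in ISC and 14.8, 16.3 and 18.8 in AE. It was 2.26-fold higher at E14.5 than at E12.5 (log2 change 1.17 ± 0.15 SE, edgeR adjusted p = 3.23e-05) and 1.97-fold lower in ISC than at E14.5 (log2 change -0.97 ± 0.16 SE, edgeR adjusted p = 9.35e-05), while AE lay 1.48-fold above ISC (adjusted p = 0.00589). Gstm5 averaged 11.8 ± 0.848 CPM at E12.5, 19.9 ± 0.703 at E14.5, 17.4 ± 2.94 in ISC and 12.7 ± 3.07 in AE. It was higher at E14.5 than at E12.5 (log2 change 0.75, adjusted p = 0.00249). Its lower level in AE than in ISC (log2 change -0.43, adjusted p = 0.0439) lost the call in 4 of the 6 fits without 1 library, those without ISC replicate 1 or 2 and without AE replicate 2 or 3. For Gstm5, E14.5 and ISC overlapped and the change was not called (log2 change -0.20). The E14.5 libraries, where Gstm2 was highest and Gstm5 had its highest mean, also held the largest sum of mesenchyme markers. That sum was 378 ± 42.0 CPM at E14.5 and 10.9 ± 0.936 CPM in ISC. Of these markers, 12 of 13 were higher and 1 lower at E14.5 than at E12.5 (23.6% and 25.6% of all genes), and none was at 0. The part of such cells in the levels of Gstm2 and Gstm5 was not tested.

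The theta, kappa and zeta enzymes described next, and Gstp2 of the pi class, stood higher in ISC than at E14.5. Gstt1, a theta enzyme known for acting on small halogenated compounds, had 1.32, 1.38 and 0.954 CPM at E12.5, 0.922, 0.995 and 0.747 at E14.5, 20.7, 15.2 and 12.8 in ISC and 43.9, 76.9 and 99.1 in AE. The embryonic groups overlapped, and the adult groups lay above them without overlap. ISC were 17.7-fold higher than E14.5 (log2 change 4.15 ± 0.31 SE, edgeR adjusted p = 4.86e-08) and 13.3-fold higher than E12.5 (adjusted p = 9.14e-08), and AE 4.51-fold higher than ISC (log2 change 2.17 ± 0.26 SE, edgeR adjusted p = 3.93e-06). Gstt2 had 4.46, 3.95 and 4.92 CPM at E12.5, 8.85, 8.08 and 8.7 at E14.5, 26.7, 25.9 and 20.2 in ISC and 24.9, 23.5 and 17.5 in AE. It was higher at E14.5 than at E12.5 and higher again in ISC, by 2.84-fold (log2 change 1.505 ± 0.16 SE, edgeR adjusted p = 2.03e-06), while AE and ISC overlapped (log2 change -0.13, adjusted p = 0.481). Gstt3 had 35.7, 34.1 and 30.8 CPM at E12.5, 33.4, 34.2 and 31.9 at E14.5, 77.6, 69 and 80.3 in ISC and 115, 99.3 and 117 in AE. The embryonic groups overlapped, ISC were 2.28-fold over E14.5 (log2 change 1.19 ± 0.11 SE, edgeR adjusted p = 2.92e-07) and AE were 1.46-fold over ISC (adjusted p = 0.000341).

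Gstk1, the kappa enzyme of mitochondria and peroxisomes, had 1.64, 1.29 and 1.28 CPM at E12.5, 1.84, 1.95 and 1.93 at E14.5, 4.94, 5.61 and 4.13 in ISC and 48.9, 83 and 79.3 in AE. Its AE level was 14.4-fold that of ISC (log2 change 3.84 ± 0.21 SE, edgeR adjusted p = 3.04e-09), and its ISC level 2.55-fold that of E14.5 (adjusted p = 0.000101). Gstz1, the zeta enzyme that works in the breakdown of tyrosine, had 38.1, 34.9 and 36.2 CPM at E12.5, 41, 38.9 and 42.5 at E14.5, 57.5, 55.4 and 70.9 in ISC and 70.9, 77.2 and 80.3 in AE. The lowest AE library and the highest ISC library had the same level to 3 digits, and the AE over ISC change of 0.31 (adjusted p = 0.0219) was lost without ISC replicate 1, at 0.26 (adjusted p = 0.0822), and without ISC replicate 2, at 0.24 (adjusted p = 0.110). Upper-quartile scaling cut it to 0.11 (adjusted p = 0.376), and with its 6 libraries alone it was not called (adjusted p = 0.0731). Gsto1, an omega enzyme that reduces rather than conjugates many of its substrates, had 116, 113 and 106 CPM at E12.5, 111, 113 and 114 at E14.5, 146, 133 and 121 in ISC and 229.6, 270.3 and 308 in AE. AE stood far above the rest, 2.02-fold over ISC (log2 change 1.01 ± 0.11 SE, edgeR adjusted p = 2.43e-06), and all ISC libraries lay above the embryonic ones. No earlier step was called with all 12 libraries. ISC were called higher with the 6 libraries of the comparison alone (adjusted p = 0.04385 over E14.5 and 0.03247 over E12.5) and, over E12.5, without ISC replicate 3 (adjusted p = 0.03485).

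Gstp1, the pi enzyme, had 16.7, 14.6 and 11.3 CPM at E12.5, 30.5, 31.1 and 31.4 at E14.5, 28.1, 31.3 and 17.3 in ISC and 113, 131 and 115 in AE. It was 2.19-fold higher at E14.5 than at E12.5 (log2 change 1.13 ± 0.19 SE, edgeR adjusted p = 0.000241) and 4.69-fold higher in AE than in ISC (log2 change 2.23 ± 0.19 SE, edgeR adjusted p = 1.93e-07), and E14.5 and ISC overlapped in part. Its neighbour Gstp2 had 2 counts in all at E12.5 and averaged 0.0931 ± 0.0412 CPM at E14.5, 0.812 ± 0.149 in ISC and 9.09 ± 3.17 in AE, 11-fold over ISC (adjusted p = 1.68e-06). Of the Gstp2 exon sequence, 54.3% also occurs in other genes, and 49.1% in Gstp1, and the promoter windows of the pair were 78.5% identical. Gsto2 stayed under 5 CPM in each group, and Gstt4 had 10 counts in all.

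The 3 Mgst genes encode membrane enzymes, of which Mgst2 and Mgst3 can also make leukotriene C4. Each was higher at E14.5 than at E12.5 and higher in AE than in ISC. Mgst2 had 0.995, 0.444 and 0.55 CPM at E12.5, 3.21, 3.12 and 2.9 at E14.5, 36.7, 36.3 and 29.1 in ISC and 76.7, 142 and 121 in AE. No groups overlapped. It was 4.49-fold higher at E14.5 than at E12.5, 11-fold higher in ISC than at E14.5 (log2 change 3.46 ± 0.23 SE, edgeR adjusted p = 1.74e-08) and 3.32-fold higher in AE than in ISC (log2 change 1.73 ± 0.21 SE, edgeR adjusted p = 4.92e-06). Mgst1 had 17.5, 14.2 and 14.6 CPM at E12.5, 33.1, 35.3 and 38 at E14.5, 92.8, 78.4 and 50.1 in ISC and 160.3, 205 and 179 in AE. ISC replicate 3 was the lowest of its group, and the folds were 2.3 for E14.5 over E12.5, 2.08 for ISC over E14.5 and 2.46 for AE over ISC, all called. Mgst3 had 8.12, 6.79 and 6.05 CPM at E12.5, 42.2, 45.3 and 46.3 at E14.5, 46.6, 41.1 and 26.2 in ISC and 211, 257 and 252 in AE. Its step lay between E12.5 and E14.5, 6.36-fold (log2 change 2.67 ± 0.19 SE, edgeR adjusted p = 1.23e-07), ISC and E14.5 overlapped (adjusted p = 0.26), and AE were 6.33-fold over ISC (log2 change 2.66 ± 0.18 SE, edgeR adjusted p = 2.36e-08). As shares of the 3 genes, Mgst2 held 2.81% ± 0.851 at E12.5, 3.72% ± 0.383 at E14.5, 23.9% ± 3.43 in ISC and 20.9% ± 3.33 in AE.

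**Figure D4:**
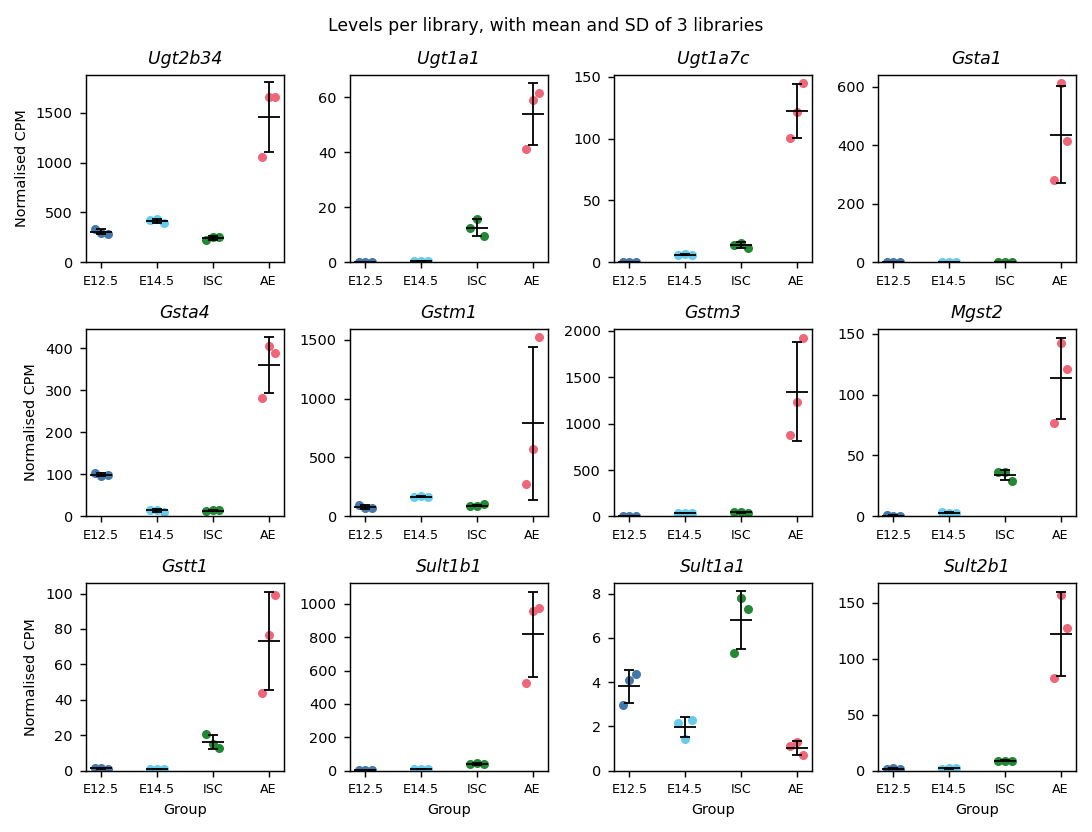
Normalised CPM (y axis, linear from 0) of 12 enzyme genes by group (x axis), with a point per library and the mean ± SD of 3 libraries in black. Ugt1a1 and Mgst2 leave the axis only in the adult groups, Gsta4 dips at E14.5 and in ISC, Gstm1 has widely spread AE points, and Sult1a1 peaks in ISC and is lowest in AE.

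Of the sulfotransferases, Sult1b1, which acts on phenols and thyroid hormones, had 3.69, 2.98 and 3.78 CPM at E12.5, 9.02, 9.58 and 8.13 at E14.5, 39.4, 47.6 and 37 in ISC and 523, 955 and 974 in AE. No groups overlapped, and each step was upward, 2.56-fold at E14.5 over E12.5 (log2 change 1.35 ± 0.22 SE, edgeR adjusted p = 0.000215), 4.62-fold in ISC over E14.5 (log2 change 2.21 ± 0.21 SE, edgeR adjusted p = 5.25e-07) and 19.8-fold in AE over ISC (log2 change 4.31 ± 0.22 SE, edgeR adjusted p = 1.92e-09). Sult1d1, which in mice acts on catecholamines, had 17.1, 17.4 and 12.3 CPM at E12.5, 41.6, 42 and 33.4 at E14.5, 25.5, 42.3 and 40.5 in ISC and 241, 373 and 356 in AE. E14.5 and ISC overlapped, with 2.5-fold between E14.5 and E12.5 (adjusted p = 0.000167) and 8.94-fold between AE and ISC (log2 change 3.16 ± 0.22 SE, edgeR adjusted p = 2.83e-08). Sult1d1 held 67.5% ± 3.04 of the summed Sult level at E14.5 and 45.4% ± 4.81 at E12.5, and Sult1b1 held 64% ± 2.61 in AE and 42.2% ± 4.28 in ISC.

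The promoter window of Sult1d1 held both the HNF1 form, at position -79, and the xenobiotic response form on the opposite strand, at position -47, which are given in capitals (chr5:87569007-87569256, minus strand, 250 bases before the start, RefSeq, GRCm38.p6).
Sult1d1: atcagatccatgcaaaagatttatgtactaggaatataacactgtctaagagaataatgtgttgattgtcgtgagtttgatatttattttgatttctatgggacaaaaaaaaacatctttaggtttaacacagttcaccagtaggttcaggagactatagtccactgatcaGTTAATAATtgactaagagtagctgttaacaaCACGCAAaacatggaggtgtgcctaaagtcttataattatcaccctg
Among the 65 windows of the 54 enzyme genes with a RefSeq entry, 8 held GTTAATNAT, which 0.737% of all 32851 promoter windows hold. The 8 belong to Sult1d1, Ugt1a1, Ugt1a9, Ugt1a10 and the neighbouring copies Sult2a3, Sult2a4, Sult2a5 and Sult2a6, of which the Sult2a genes had 0 counts in every library and Ugt1a10 had 1. TNGCGTG was in 3 windows (Gsta2, Sult1d1 and Ugt1a5) and in 4.10% of all windows. The antioxidant response form TGACNNNGC was in 4 windows (Gsta3, Gstm5, Gstm7 and Mgst1) and in 10.2% of all windows. CAAAGTCCA for HNF4 (0.384% of all windows) and TTTATNGC for CDX factors (2.32%) were in none, and TATAAA, read on the forward strand alone, was in 8 enzyme windows and 7.59% of all. Both strands were searched for the other forms, no base was shared between the 2 matches in Sult1d1, and a match is a run of letters, not a measured site.

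Sult2b1, which acts on cholesterol and other hydroxysteroids, had 1.28, 1.95 and 1.58 CPM at E12.5, 1.74, 2.32 and 2.42 at E14.5, 8.11, 8.93 and 8.92 in ISC and 82.3, 157 and 127 in AE. The embryonic groups overlapped, ISC were 4.03-fold over E14.5 (log2 change 2.01 ± 0.23 SE, edgeR adjusted p = 4.32e-06) and AE 14.1-fold over ISC (log2 change 3.81 ± 0.22 SE, edgeR adjusted p = 5.53e-09). Sult1a1, the general phenol sulfotransferase, ran against the rest. It averaged 3.8 ± 0.749 CPM at E12.5, 1.97 ± 0.456 at E14.5, 6.81 ± 1.31 in ISC and 1.03 ± 0.315 in AE. All ISC libraries lay above the others and all AE libraries below them. AE were 6.43-fold lower than ISC (log2 change -2.68 ± 0.30 SE, edgeR adjusted p = 2.14e-06), and ISC 3.51-fold higher than E14.5 (log2 change 1.81 ± 0.25 SE, edgeR adjusted p = 2.83e-05). AE were 1.83-fold lower than E14.5 (log2 change -0.87, edgeR adjusted p = 0.0182), a call kept in 8 of 13 alternative runs. That call was lost with limma-voom and without E14.5 replicate 1 or 3 or AE replicate 1 or 3. E14.5 was 1.95-fold lower than E12.5 (adjusted p = 0.00636).

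Sult1c2 separated embryo from adult at a low level. It had 0 counts at E12.5, 2 counts at E14.5, 4.69, 3.21 and 2.61 CPM in ISC and 3.82, 2.94 and 2.74 CPM in AE. ISC were at least 94.6-fold higher than the floor of 3 counts over the E12.5 group, and AE did not differ detectably from ISC (log2 change -0.11, adjusted p = 0.794). Sult4a1, an enzyme best known from brain, averaged 5.96 ± 0.138 CPM at E12.5, 1.84 ± 0.162 at E14.5, 0.0894 ± 0.0362 in ISC and 0.257 ± 0.415 in AE. It was 3.22-fold lower at E14.5 than at E12.5 (log2 change -1.69 ± 0.38 SE, edgeR adjusted p = 0.00227) and 20-fold lower in ISC than at E14.5 (log2 change -4.32 ± 0.66 SE, edgeR adjusted p = 6.61e-05), and its AE counts came almost all from replicate 2. The neural markers, set beside Sult4a1, summed to 13 ± 1.04 CPM at E12.5, 21.9 ± 0.311 at E14.5, 4.55 ± 0.275 in ISC and 7.98 ± 1.99 in AE. Of 7, 2 were higher and 1 lower at E14.5 than at E12.5, beside 23.6% and 25.6% of all genes, and so few genes do not set them apart. None was higher and 6 were lower in ISC than at E14.5, beside 30.2% and 30.6% of all genes. Their part in the level of Sult4a1 was not tested. Sult6b1 stayed under 5 CPM in each group and was lower in ISC than at E14.5 (log2 change -0.99, adjusted p = 0.0077).

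The sulfotransferases best known from liver gave no counts. Sult2a1 to Sult2a7, known for bile acids and steroids in liver, were at 0 in every library, as were Sult1c1, Sult3a1 and the estrogen sulfotransferase Sult1e1. A count of 0 over 3 libraries allows a level of up to 0.0371 CPM at E12.5, 0.0263 CPM at E14.5, 0.0525 CPM in ISC and 0.0606 CPM in AE, for counting error only. Sult5a1 had 46 counts in all and was not tested.

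Per kilobase of exon that overlaps no other annotated gene, the order of the enzymes changed between groups. Sequence that also occurs in copies elsewhere was not taken out, and for Gsta1 90.5% of the exon stretches do so, which makes its place uncertain. At E12.5 Gsta4 stood highest with 78.6 ± 3.32 CPM per kilobase, followed by Ugt2b34 with 70.8 ± 5.94 and, close together, Gsto1 with 55.2 ± 2.39 and Gstm1 with 54.7 ± 10.6. At E14.5 Gstm1 (115 ± 3.82) and Ugt2b34 (96.5 ± 4.76) led. In ISC Gsto1 (65.98 ± 6.07), Gstm1 (62.7 ± 5.47) and Ugt2b34 (56.98 ± 4.21) lay within about their spread of each other. In AE Gstm3 led with 1026 ± 408 CPM per kilobase, above Gstm1 (536 ± 441), Gsta1 (456 ± 173) and Ugt2b34 (337 ± 81.01), and the SD of Gstm1 was nearly as large as its mean. Gsta4 was thus the leading enzyme per length at E12.5 and not among the top 3 in any other group.

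Of the 44 tested enzymes, 14 have over 20% of their 50-base exon stretches in another gene. Among the other 30, 13 were higher and 3 lower at E14.5 than at E12.5, 13 higher and 4 lower in ISC than at E14.5, and 23 higher and 2 lower in AE than in ISC. The shares of all genes were 23.6% and 25.6%, 30.2% and 30.6%, and 32.6% and 35.2% in the same order. Within one listing of reads, 17 were higher and 4 lower in ISC than at E12.5, and 25 higher and 5 lower in AE than at E14.5 (33.9% and 34.6%, and 36.7% and 41.5% of all genes).

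The genes that supply the donor molecules were described from lists of known pathway genes. On the list for UDP-glucuronic acid, 5 of 6 genes were higher and 1 lower in AE than in ISC, beside 32.6% and 35.2% of all genes. Ugdh, which makes the donor, had 56.9, 53.4 and 50.6 CPM at E12.5, 103, 107 and 96.1 at E14.5, 47.7, 45.3 and 36.5 in ISC and 364, 536 and 759.6 in AE, 12.8-fold higher in AE than in ISC (log2 change 3.68 ± 0.22 SE, edgeR adjusted p = 6.47e-09) and 2.36-fold lower in ISC than at E14.5 (log2 change -1.24 ± 0.20 SE, edgeR adjusted p = 0.000106). By library levels this is the course of Ugt2b34, lowest in ISC and highest in AE. For Ugt2b34 the lower level in ISC than at E12.5 was called only in some alternative runs. Ugp2, one step earlier, averaged 230.3 ± 19.8 CPM in AE and 106 ± 1.35 CPM in ISC, which was called. Slc35a3, a nucleotide sugar transporter on the list, averaged 512 ± 55.3 CPM in AE and 273 ± 37.5 CPM in ISC, also called. Whether Slc35a3 carries this donor was not tested, so its level is not read as donor supply. It is nevertheless among the 5 of 6 genes higher in AE, so that count is not one of donor supply alone. At E14.5, 4 of the 6 were higher and 1 lower than at E12.5 (23.6% and 25.6% of all genes). In ISC 2 were higher and 1 lower than at E14.5, near the shares of all genes (30.2% and 30.6%).

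For the sulfate donor PAPS, 5 of 8 genes were higher and none lower in AE than in ISC, beside 32.6% and 35.2% of all genes. Papss2, a PAPS synthase, had 30.4, 23.8 and 23.8 CPM at E12.5, 34.6, 35.7 and 34.4 at E14.5, 35.7, 35.8 and 13.8 in ISC and 3048, 3919 and 3933 in AE, and AE were 128-fold higher than ISC (log2 change 7.003 ± 0.33 SE, edgeR adjusted p = 1.15e-09). The ISC libraries ranged below and up to the embryonic ones, and no earlier step was called. Bpnt1, which clears the by-product of sulfation, averaged 608 ± 22.2 CPM in AE and 76 ± 12 CPM in ISC (8.01-fold), and the sulfate transporter Slc13a1 279 ± 94.5 CPM in AE and 5.57 ± 2.03 CPM in ISC (50.7-fold), both called. At E14.5, 3 were higher and 1 lower than at E12.5 (23.6% and 25.6% of all genes), and in ISC 3 were higher and 2 lower than at E14.5 (30.2% and 30.6%), the second pair near the shares of all genes.

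Of 15 genes of glutathione supply and turnover, 12 were higher and 1 lower in AE than in ISC (32.6% and 35.2% of all genes), 7 higher and 2 lower in ISC than at E14.5 (30.2% and 30.6%), and 9 higher and none lower at E14.5 than at E12.5 (23.6% and 25.6%). The most abundant were surface peptidases that break glutathione and its conjugates down. Anpep had 415, 303 and 318 CPM at E12.5, 656, 683 and 661 at E14.5, 453, 668 and 400.3 in ISC and 8472, 17613 and 13801 in AE, 26.2-fold higher in AE than in ISC (log2 change 4.71 ± 0.28 SE, edgeR adjusted p = 7.53e-09). Ggt1 was 102-fold higher (adjusted p = 5.61e-08) and Dpep1 46.5-fold higher (adjusted p = 2.08e-08) in AE than in ISC. Without ISC replicate 2 the log2 change of Ggt1 was 7.56, against 6.67 with all libraries. Anpep, Ggt1 and Dpep1 are also brush border genes of enterocytes, and for each AE replicate 1 was the lowest of its group, as for the enterocyte markers. The single lower gene was Cbs of the transsulfuration pathway, at 1.81 ± 1.13 CPM in AE and 25.2 ± 1.32 CPM in ISC, named after its value was seen.

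Of 7 export pumps, 3 were higher and 4 lower in AE than in ISC, where 32.6% and 35.2% of all genes were, and so few genes do not set the pumps apart. Abcc2, the apical pump for conjugates, had 7.51, 3.64 and 4.04 CPM at E12.5, 68.2, 68.2 and 63.4 at E14.5, 189.8, 228 and 246 in ISC and 739.7, 1854 and 1796 in AE. The groups did not overlap, with folds of 13, 3.32 and 6.61 over the group before, all called. Abcg2, also apical, averaged 262 ± 41.9 CPM in AE and 41.3 ± 5.76 CPM in ISC (log2 change 2.67 ± 0.14 SE, edgeR adjusted p = 2.28e-09). Abcc3, a basolateral pump, had 0.417, 0.444 and 0.257 CPM at E12.5, 0.598, 0.683 and 0.264 at E14.5, 61.5, 55.7 and 67.4 in ISC and 183, 228 and 266 in AE, 109.5-fold higher in ISC than at E14.5 (log2 change 6.78 ± 0.24 SE, edgeR adjusted p = 1.85e-11). The lower pumps, named after their values were seen, were Abcc1, Abcc4, Abcc5 and Abcc6, with Abcc4 at 2.77 ± 0.872 CPM in AE and 19.8 ± 4.56 CPM in ISC.

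Of 10 other conjugating enzymes tested, 6 were higher and 2 lower in AE than in ISC, beside 32.6% and 35.2% of all genes. As3mt, which methylates arsenic, averaged 64.5 ± 12.6 CPM in AE and 39.9 ± 4.09 CPM in ISC and Nat2, an arylamine acetyltransferase, 44.4 ± 11.9 CPM in AE and 12.2 ± 1.61 CPM in ISC, both called higher. Of 7 genes that split or further process conjugates, 5 were higher and 1 lower in that comparison. Gusb, the lysosomal glucuronidase, was not called (log2 change -0.33, adjusted p = 0.0741) and was 3.27-fold lower in ISC than at E14.5 (adjusted p = 3.01e-07). Acy3 and Ccbl1, which act on cysteine conjugates, were 7.12-fold and 2.37-fold higher in AE than in ISC (adjusted p = 2.96e-07 for Acy3 and 2.05e-06 for Ccbl1).

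Of 15 genes for factors known to control these enzymes, 10 were higher and 2 lower at E14.5 than at E12.5 (23.6% and 25.6% of all genes), 6 higher and 2 lower in ISC than at E14.5 (30.2% and 30.6%), and 11 higher and 1 lower in AE than in ISC (32.6% and 35.2%). The higher count in ISC over E14.5 is close to the share of all genes. Hnf4a, an intestinal and hepatic nuclear receptor, had 325, 265 and 314 CPM at E12.5, 1037, 1042 and 1000.1 at E14.5, 1642, 1546 and 1879 in ISC and 2378, 2074 and 2019 in AE. It was 3.41-fold higher at E14.5 than at E12.5 (log2 change 1.77 ± 0.13 SE, edgeR adjusted p = 1.3e-07) and 1.28-fold higher in AE than in ISC (adjusted p = 0.0204). Nfe2l2, the factor of the antioxidant response, had 149, 143 and 123 CPM at E12.5, 178, 192 and 184 at E14.5, 312, 346 and 355 in ISC and 925, 869.5 and 860.3 in AE, 2.62-fold higher in AE than in ISC (log2 change 1.39 ± 0.10 SE, edgeR adjusted p = 5.02e-08). Rxra, the partner of several nuclear receptors, averaged 259.9 ± 40.6 CPM in AE and 89.3 ± 6.55 CPM in ISC (adjusted p = 8.69e-08), with no earlier step called.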

How the data were processed

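RNA-seq was made from 12 libraries of sorted mouse small-intestinal epithelium, 3 per group. Per the labels, cDNA was amplified from 50 ng of RNA (Ovation kit) before library preparation. The deposited values are the authors' raw read counts per gene symbol, with no normalisation. Per the submitters' processing notes, the mm9 build, STAR 2.3.1z13 and HTSeq 0.6.1p1 were used, beside bcl2fastq, SAMtools and DESeq2. The notes used here state no settings, annotation or strand rule, and reads of overlapping or antisense genes cannot be told apart. The 5 closing entries that name no gene stayed out of library sizes and tests; they listed 33.4% to 58.1% of reads outside genes and 0.531% to 1.00% as ambiguous.

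Counts were filtered with filterByExpr, leaving 15342 of 23366 genes, scaled by TMM and fitted with edgeR 4.0.16 (R 4.3.3, quasi-likelihood, 1 coefficient per group, all 12 libraries, no covariate). SE is the log2 change divided by the root of F. p-values were adjusted by Benjamini-Hochberg over all genes tested. DESeq2 1.42.0, limma 3.58.1, other scalings, no filter, separate fits and left-out libraries were alternatives. The code was tested on simulated data. Replicate libraries differed by more than sampling noise (chi-square per degree of freedom 3.48 to 141). Separate cultures or animals behind E14.5 replicates are not stated, so p-values may measure technical spread there. Intervals and floors (3 counts) cover counting error only.

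The members and gene lists were chosen with earlier results of these data known. Enzymes with a group mean of at least 5 CPM were named with values, those of at least 20 CPM with every library, and up to 3 genes of each pathway list by highest group mean. One list gene that this rule names is not reported here. Of the list genes, Sts and Foxf1a had no entry under that symbol. Promoters are RefSeq windows on GRCm38.p6, matched by symbol for 54 of 62 genes, and shared exon sequence was counted on GENCODE for GRCm38 in stretches of 50 bases for all 62. No coordinate was converted between builds.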

Additional observations from a re-analysis of the deposited data

How the results depend on the processing

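Over the 44 enzymes tested, no call had the opposite sign under any alternative run. Among lower calls, ISC over E14.5 (6) had 3 when a log2 change of at least 1 was also asked, and AE over E14.5 (5) had 2. AE over ISC (2) had 1 with DESeq2, with limma-voom, with relative log expression scaling, with its 6 libraries alone and with a log2 change of at least 1. Leaving out each library in turn gave 1 to 2 lower for AE over ISC, the lowest without ISC replicate 1 or 2 or AE replicate 2 or 3, and 3 to 4 lower for AE over E14.5, the lowest without E14.5 replicate 1 or AE replicate 1. Higher calls stayed within 33 to 37 for AE over ISC, 38 to 39 for AE over E14.5, 20 to 22 for ISC over E14.5, 26 to 30 for ISC over E12.5 and 18 to 20 for E14.5 over E12.5 when a library was left out. Upper-quartile scaling moved the median of all genes for AE over ISC to -0.25, against -0.05, and for AE over E14.5 to -0.37, against -0.12, and left 33 higher in AE over ISC. Same-numbered libraries deviated together weakly or not at all (18 pairs, r of -0.11 to 0.14, 1 over 0.1). Between ISC and AE, r was 0.035, 0.144 and 0.072 for the same numbers and -0.156 to 0.0731 for the others. Such small values cannot decide whether the numbers mark pairs. With the replicate block the members called were 21 higher and 3 lower (E14.5 over E12.5), 22 and 6 (ISC over E14.5), 36 and 2 (AE over ISC), 27 and 4 (ISC over E12.5) and 39 and 5 (AE over E14.5). The causes of these differences were not tested. Depth limits the genes with few counts, such as Ugt1a2, Ugt1a9 and Sult1c2.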
